A study of Labrus bergylta with 24 samples.

Results

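The 150 transcripts described here stood higher in the hindgut of ballan wrasse on both diets that held soyasaponin than on both diets that did not. They were chosen from 20751 deposited transcripts, of which 12463 had a mean of at least 50 normalized counts over the 24 fish. In 969 of these, the widest gap between the 4 diet medians on the log2(count + 1) scale had the soyasaponin and combined diets above it and the prebiotic and control diets below. The 150 with the largest gap per pooled within-diet SD (20 degrees of freedom) were kept, and this ratio is called the score. Since the diet medians and the within-diet spread chose these transcripts, their difference between fish with and without soyasaponin is given as a description, and the calls given further on from fits over all transcripts are no support for it.

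The fish were *Labrus bergylta*, a stomachless marine cleaner fish, with 6 fish on each of 4 diets. Soyasaponin fish received the reference feed with 0.7% soyasaponin, combined fish received it with 0.7% soyasaponin and 0.4% of a commercial prebiotic (Aquate SG), prebiotic fish received it with 0.4% prebiotic, and control fish received it alone. All ate the reference feed during 4 weeks of acclimatization and their own diet for the 5 weeks after. Each diet was fed to 2 tanks, and no label ties a fish to a tank, so diet and tank cannot be told apart. The tissue was the distal intestine, and libraries of stranded mRNA held 8424447 to 12507141 recovered reads. The unit is a normalized count, that is, reads divided by a size factor of the library.

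Soyasaponins are amphipathic triterpenoid glycosides of soybean that bind membrane sterols. In Atlantic salmon they are known for their part in the inflammation of the distal intestine that soybean meal brings about. The distal intestine of fish takes up macromolecules and holds a large population of immune cells. Prebiotics are feed ingredients meant to be used by gut microbes. The identifiers of the transcripts carry no gene names: 0 of 20751 matched the RefSeq gene table of assembly fLabBer1.1, so no function, position or sequence is given, and neither the cell types of the tissue nor any pathway could be checked against marker genes. In bulk tissue a change in the share of a cell type and a change in RNA per cell cannot be told apart.

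The level of the set in a fish was taken as the median over the 150 transcripts of log2(count + 1) minus the mean of the 12 fish without soyasaponin. It ran from 0.166 to 0.686 in soyasaponin fish, with a median of 0.506, and from 0.443 to 0.782 in combined fish, with a median of 0.512. It ran from -0.141 to 0.0694 in prebiotic fish, with a median of -0.0162, and from -0.159 to 0.243 in control fish, with a median of 0.0172. The combined and prebiotic fish did not overlap. Soyasaponin replicates 2 and 3 stood at 0.166 and 0.239, below control replicate 5 at 0.243, while the other 4 soyasaponin fish stood at 0.495 or above.

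**Figure D1:**
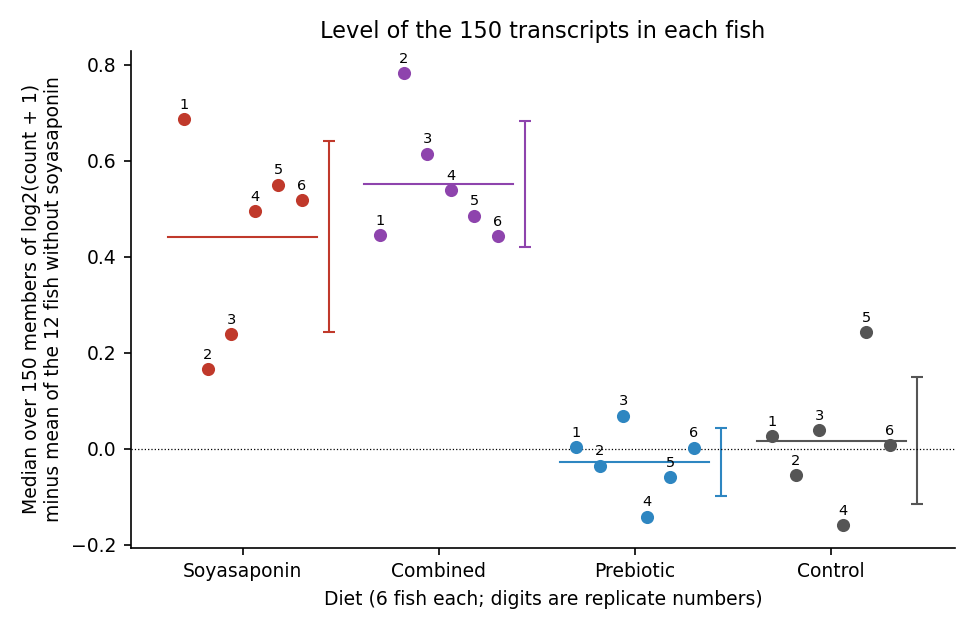
Each point is a fish and shows the median over the 150 transcripts of log2(count + 1) minus the mean of the 12 fish without soyasaponin (y axis, log2 units), by diet (x axis); lines are diet means and bars are SD (n = 6 each). Combined fish lie at 0.443 or above, soyasaponin replicates 2 and 3 lie at 0.166 and 0.239, and control replicate 5 at 0.243 lies above all other fish without soyasaponin.

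The same fish were often the extreme ones for single transcripts. Among the 12 fish given soyasaponin, replicate 2 of the soyasaponin diet held the lowest value of 66 of the 150 transcripts and replicate 3 that of 25. Among the 12 fish without it, control replicate 5 held the highest value of 71. Counting a transcript as high in a fish where it exceeded the midpoint between the mean of the fish with and the mean of the fish without soyasaponin, soyasaponin replicates 2 and 3 were high in 54 and 79 of 150, and the other fish given soyasaponin in 120 to 146. Control replicate 5 was high in 76, and the other fish without soyasaponin in 4 to 21. How often each fish was extreme or high over all 12463 transcripts was not counted, so these counts only describe the set.

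The set made up 2.81% to 3.53% of all normalized counts in soyasaponin fish, 2.98% to 3.65% in combined fish, 1.99% to 2.36% in prebiotic fish and 2.20% to 3.52% in control fish. Without LABE_00049735-RA, the most abundant member, the shares were 1.45% to 2.06% in soyasaponin, 1.74% to 2.14% in combined, 1.05% to 1.26% in prebiotic and 1.15% to 1.73% in control fish. The highest value without soyasaponin was again that of control replicate 5.

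Most differences in the set were small. The log2 difference between the 12 fish with and the 12 fish without soyasaponin, from the limma fit over both prebiotic levels, had a median of 0.51 over the 150 and ran from 0.10 to 3.24, against a median of -0.02 over all 17056 transcripts tested. In fold terms 96 of the 150 were under 1.5-fold, 45 were from 1.5-fold to under 2-fold and 9 were at least 2-fold higher. The scale adds 1 count and so understates the fold of scarce transcripts. Members were more abundant than other transcripts, with a median mean of 583 normalized counts against 238 over the 12463 transcripts, and 35 had a mean of at least 1000. Their pooled within-diet SD had a median of 0.253 log2 units, against 0.292 over the 12463. Low spread raises the score, so this is part of the choice, and whether the higher abundance follows from it was not tested.

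**Figure D2:**
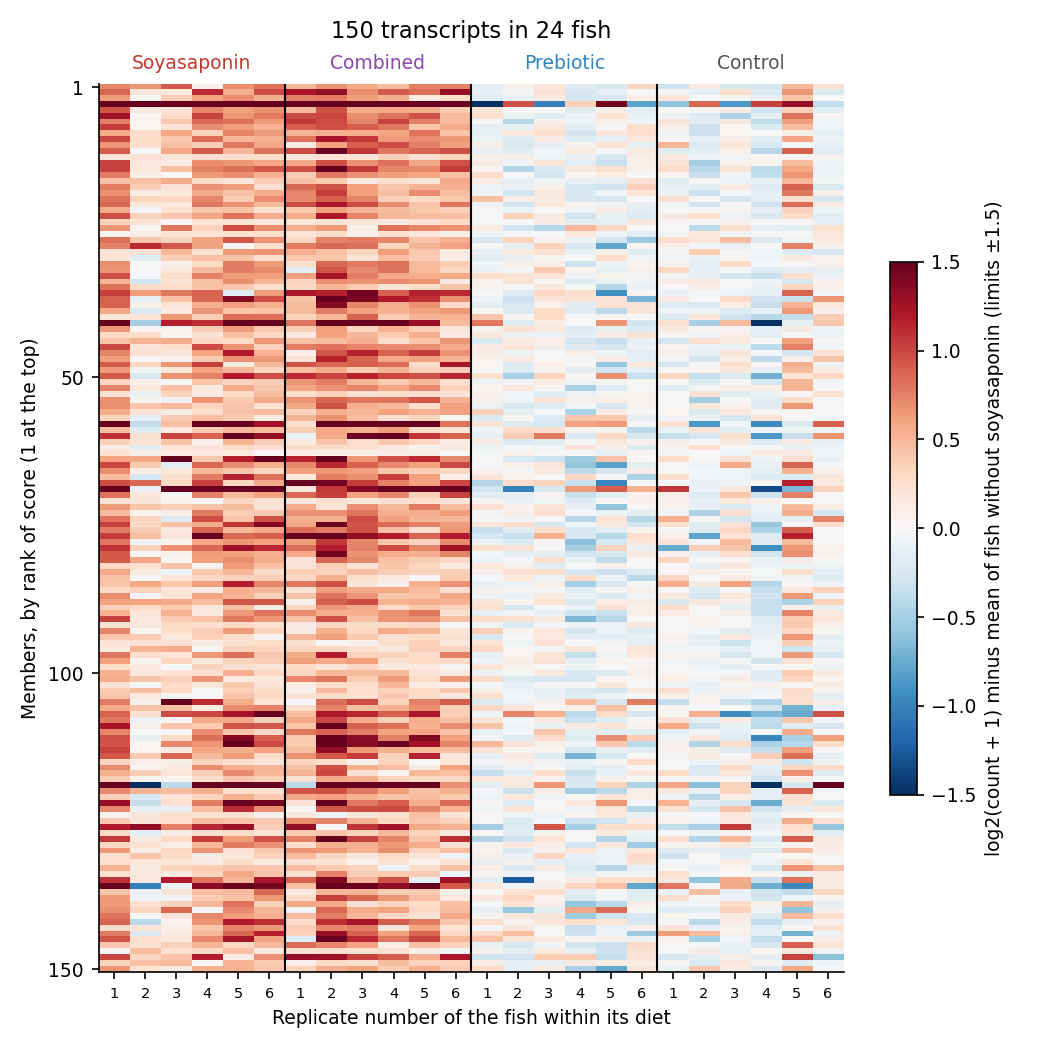
Rows are the 150 transcripts by rank of score and columns are the 24 fish by diet; color is log2(count + 1) minus the mean of the 12 fish without soyasaponin, with color limits at 1.5 log2 units either side of 0. Columns of soyasaponin replicates 2 and 3 are paler than the other fish given soyasaponin, and the column of control replicate 5 is redder than the other fish without it.

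The highest score, 2.63, belonged to LABE_00036797-RA. Its lowest, median and highest normalized counts were 457, 717 and 828 in soyasaponin fish, 606, 675 and 737 in combined fish, 371, 424 and 546 in prebiotic fish and 352, 424 and 613 in control fish. Soyasaponin replicate 4 was its low fish and control replicate 5 its high one, and 10 of the 12 fish given soyasaponin exceeded every fish without it. Its log2 difference was 0.63 (SE 0.10), a 1.55-fold difference.

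LABE_00017538-RA followed with a score of 2.501. It had 405, 603 and 798 normalized counts in soyasaponin fish and 596, 776 and 917 in combined fish, as lowest, median and highest. The same values were 311, 349 and 427 in prebiotic fish and 315, 345 and 579 in control fish. Combined fish lay wholly above both diets without soyasaponin, while soyasaponin replicates 2, 3 and 5, at 417, 405 and 533, lay below the highest control fish. The log2 difference was 0.84 (SE 0.12).

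The members with the largest log2 differences were scarce and variable. LABE_00058622-RA had lowest, median and highest counts of 91.3, 177 and 614 in soyasaponin fish and 45.5, 137 and 342 in combined fish. It had 2.35, 14.3 and 43.6 in prebiotic fish and 8.09, 20.3 and 40.1 in control fish. Every fish given soyasaponin exceeded every fish without it, with a log2 difference of 3.24 (SE 0.45), a 9.44-fold difference on the log2(count + 1) scale.

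LABE_00035696-RA had a log2 difference of 1.60 (SE 0.52), and its groups overlapped. It averaged 25.4 normalized counts in prebiotic and 29.5 in control fish, so it too passed the filter only through fish given soyasaponin. Its lowest, median and highest counts were 7.00, 116 and 274 in soyasaponin fish, 17.6, 108 and 239 in combined fish, 17.0, 23.7 and 37.7 in prebiotic fish and 5.67, 24.97 and 70.4 in control fish. Soyasaponin replicates 2 and 3 held 7.00 and 17.6 and combined replicates 1 and 6 held 17.6 and 38.6, within the range of the fish without soyasaponin, and the other 8 of 12 fish given soyasaponin exceeded all of them.

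The other members that were at least 2-fold higher covered a wide range of abundance. LABE_00029976-RA averaged 5197 ± 2553 normalized counts in soyasaponin and 5634 ± 2853 in combined fish, against 2178 ± 706 in prebiotic and 1790.1 ± 756 in control fish (SD, n = 6 each), with a log2 difference of 1.37 (SE 0.29). LABE_00019508-RA averaged 152 ± 65.3 and 120.1 ± 45.7 in soyasaponin and combined fish, against 52.7 ± 24.3 and 48.2 ± 27.2 in prebiotic and control fish (SD, n = 6 each). These transcripts were picked for their fold after their values were seen. Of the 9, 2 had a mean under 100 normalized counts.

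**Figure D3:**
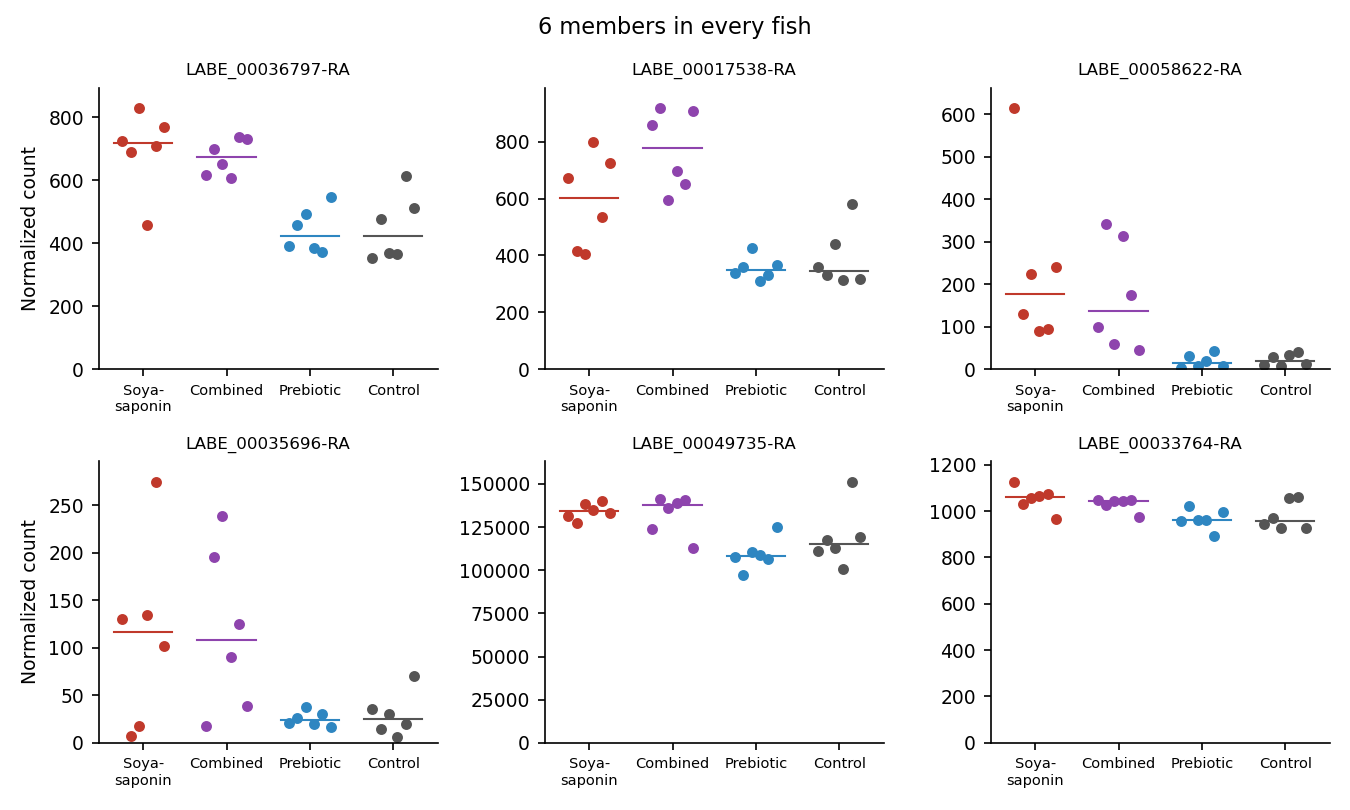
Normalized counts (y axes, from 0) of 6 members in each fish by diet (x axes); points are fish and lines are diet medians (n = 6 each). LABE_00058622-RA separates the 12 fish given soyasaponin from the 12 others, while the highest value of LABE_00049735-RA, 151224, is a control fish.

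At the other end of the range, LABE_00033764-RA differed by 0.10 log2 units (SE 0.04), a 1.07-fold difference. Its lowest, median and highest counts were 965, 1061 and 1127 in soyasaponin fish, 975, 1045 and 1050.0 in combined fish, 893, 962 and 1022 in prebiotic fish and 928, 957 and 1062 in control fish. Its pooled SD, 0.0701 log2 units, was the lowest of the set, and 3 of the 12 fish given soyasaponin exceeded every fish without it. LABE_00013416-RA differed by 0.17 (SE 0.06), with medians of 544 and 541 in soyasaponin and combined fish and 459.6 and 463 in prebiotic and control fish.

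Some members were among the most abundant transcripts of the tissue. LABE_00049735-RA ranked 2 by mean count of all 20751. It had 127577, 134097 and 139860.0 normalized counts in soyasaponin fish, 113023, 137671 and 141282 in combined fish, 97027, 108301 and 124862 in prebiotic fish and 100472, 115246 and 151224 in control fish, as lowest, median and highest. Control replicate 5 exceeded all 12 fish given soyasaponin, so 0 of 12 lay above every fish without it, though all 12 lay above their median. LABE_00050764-RA had medians of 27085 and 31430.0 in soyasaponin and combined fish and 20372 and 20814 in prebiotic and control fish, with a log2 difference of 0.51 (SE 0.09).

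At the limit of the choice, the last members inside were LABE_00005636-RA and LABE_00039523-RA, with scores of 1.42 and 1.42. The first outside were LABE_00029869-RA and LABE_00039843-RA, with 1.42 and 1.41. LABE_00029869-RA had medians of 242 and 189 in soyasaponin and combined fish and 83.4 and 68.8 in prebiotic and control fish, a larger difference than most members show, with a pooled SD of 0.770.

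The groups were separated without overlap in few transcripts. In 4 of the 150 every fish given soyasaponin exceeded every fish without it, beside 0.0401% of the 12463 transcripts. The 4, named here after their values were seen, were LABE_00001037-RA, LABE_00044813-RA, LABE_00052508-RA and LABE_00058622-RA. The last of these passed the filter on the mean only through the fish given soyasaponin. LABE_00044813-RA ran from 110.0 to 162 normalized counts in the 12 fish given soyasaponin and from 72.7 to 109 in the 12 others. LABE_00001037-RA ran from 592 to 682 with soyasaponin and from 445 to 583 without, a log2 difference of 0.24 (SE 0.05). LABE_00042563-RA, which is no member and was likewise chosen after its values were seen, was separated as well, at rank 433 of the 969. At least 10 of the 12 fish given soyasaponin exceeded all others in 26 members, 7 to 9 did so in 62, and 6 or fewer in 62. The rule favours such separation, and the same counts were not taken over all transcripts, so they only describe the set.

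The differences in the 2 pairs of diets that share no fish had unequal medians over the set. The log2 difference of soyasaponin minus control had a median of 0.39 over the 150, against 0.02 over all transcripts tested. That of combined minus prebiotic had a median of 0.61, against -0.04 over all tested. Combined minus prebiotic was the larger in 114 of 150, and this was not counted over all transcripts. With a fish left out this count ran from 102, without soyasaponin replicate 2, to 124, without soyasaponin replicate 5. The log2 mean was highest in combined fish for 116 members and in soyasaponin fish for 34. It was lowest in prebiotic fish for 96 and in control fish for 54. The groups did not overlap in 12 members between soyasaponin and control, beside 0.505% of all 12463, and in 80 members between combined and prebiotic, beside 2.75%.

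Calls were made with limma where the p adjusted over 17056 transcripts (Benjamini-Hochberg) was under 0.05. By this rule 144 of the 150 were called higher over both prebiotic levels, beside 4.06% of all transcripts tested. Soyasaponin against control called 14 of the 150 higher, beside 0.276% of all tested. Combined against prebiotic called 98 higher, beside 2.73% of all tested. The 6 members not called over both prebiotic levels were LABE_00013416-RA, LABE_00033764-RA, LABE_00049735-RA, LABE_00035696-RA and, named after their values were seen, LABE_00012438-RA and LABE_00013603-RA. The rule used these contrasts, so the counts describe the set and show nothing further about it. Both pairs called 7 members, soyasaponin against control alone 7, combined against prebiotic alone 91 and neither 45. The count of 14 depended on single fish. It was 60 without soyasaponin replicate 2 (beside 1.16% of all tested) and 29 without control replicate 5 (beside 0.504%). In limma it was 0 without control replicate 3 or soyasaponin replicates 5 or 6 (beside 0% to 0.0176%). It was 6 to 9 without control replicates 1, 2, 4 or 6, soyasaponin replicates 1 or 4 or combined replicate 3. The share of all tested that was called higher in those fits was 0.106% to 0.27%. The count of 98 was 54 without combined replicate 2, beside 1.25% of all tested.

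**Figure D4:**
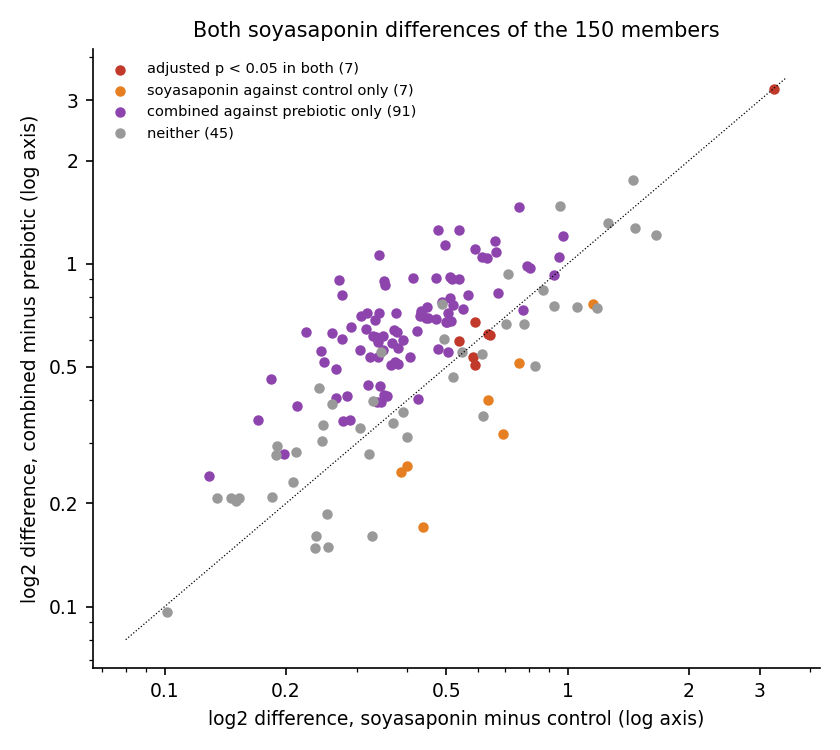
Each point is a member, with its log2 difference of soyasaponin minus control on the x axis and of combined minus prebiotic on the y axis (both log axes, log2 units from the limma fit); colors give the pair in which its adjusted p was under 0.05, and the dotted line marks equal differences. Of the 150 points, 114 lie above the line, and all are positive by the choice of members.

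The prebiotic was compared within each soyasaponin level. The rule asks for a gap wider than those within the 2 upper and the 2 lower diets, so it bounds these differences. Combined minus soyasaponin had a median of 0.11 over the 150, with a range of -0.48 to 0.58, against 0.01 over all transcripts tested. Prebiotic minus control had a median of -0.04, with a range of -0.46 to 0.38, against 0.03 over all tested. None of the 150 was called by limma in combined against soyasaponin, beside 0% of all tested, with 8 (5.33%) at an unadjusted p under 0.05, against 5.47% of all tested. None was called in prebiotic against control, beside 1.82% of all tested, while 6 (4%) had an unadjusted p under 0.05, against 21.6% of all tested. In combined against soyasaponin edgeR called 0 members and 0% of all transcripts, and DESeq2 0 members and 0.041% of all. In prebiotic against control edgeR called 0 members and 1.77% of all, and DESeq2 0 members and 9.26% of all. The bound that the rule sets on these differences also bounds these counts.

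The interaction, that is, the combined minus prebiotic difference less the soyasaponin minus control difference, had a median of 0.15 over the 150 and -0.04 over all tested. It was positive in 114 members and negative in 36. limma called 0 members, beside 0% of all tested, while 12 (8%) had an unadjusted p under 0.05, against 12.7% of all tested. edgeR called 0 members and 0% of all transcripts, and DESeq2 0 members and 0.551% of all. No member passed the test of a difference between the pairs. The interaction equals combined minus soyasaponin less prebiotic minus control, both bounded by the rule, so the rule also bounds these counts.

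The members with the largest interaction estimates had the same lowest fish with soyasaponin, soyasaponin replicate 3, and the same highest fish without it, control replicate 5. LABE_00062098-RA had lowest, median and highest counts of 222, 299 and 365 in soyasaponin fish, 278, 367 and 516 in combined fish, 91.0, 161 and 227 in prebiotic fish and 167, 181 and 408 in control fish. Its interaction was 0.78 (SE 0.33). LABE_00001930-RA had an interaction of 0.72 (SE 0.29), with medians of 293 and 333 in soyasaponin and combined fish and 180.3 and 189.9 in prebiotic and control fish. Prebiotic minus control was -0.43 (SE 0.20) for this transcript and -0.46 (SE 0.63) for LABE_00058622-RA.

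The largest estimates of combined minus soyasaponin were 0.58 (SE 0.46) for LABE_00041436-RA and 0.54 (SE 0.27) for LABE_00009290-RA. LABE_00041436-RA had 134, 271 and 793 normalized counts in combined fish and 48.0, 260.4 and 467 in soyasaponin fish, as lowest, median and highest, so the medians were close and the groups overlapped widely. It had medians of 107 in prebiotic and 103 in control fish. LABE_00009290-RA had medians of 691 in combined and 526 in soyasaponin fish, beside 240.5 and 298 in prebiotic and control fish.

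A measure that the choice did not use is the place of a fish on a list chosen without it. For each fish the rule was applied to the other 23, except that the filter on the mean used all 24. The place of the left-out fish was read on the resulting 150 transcripts. It was scaled with 0 at the mean of the other fish without soyasaponin and 1 at the mean of those with it. These lists shared 115 to 135 transcripts with the set. The median place was 0.132 to 1.19 in soyasaponin fish, 0.738 to 1.72 in combined fish, -0.260 to 0.258 in prebiotic fish and -0.368 to 0.997 in control fish. Of the 24 fish, 21 lay on their own side of 0.5, 10 of 12 with soyasaponin and 11 of 12 without.

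The exceptions were soyasaponin replicates 2 and 3, at 0.132 and 0.406, and control replicate 5, at 0.997. On average 76.0% of the listed transcripts of a left-out fish lay on its own side, against 56.2% over all 12463 transcripts. The lowest shares were 24% in soyasaponin replicate 2 and 28% in control replicate 5. Over all 12463 transcripts these 2 fish also had the lowest shares, 41.4% and 44.1%. The 24 places share most of their fish and are not independent, so they were not tested.

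**Figure D5:**
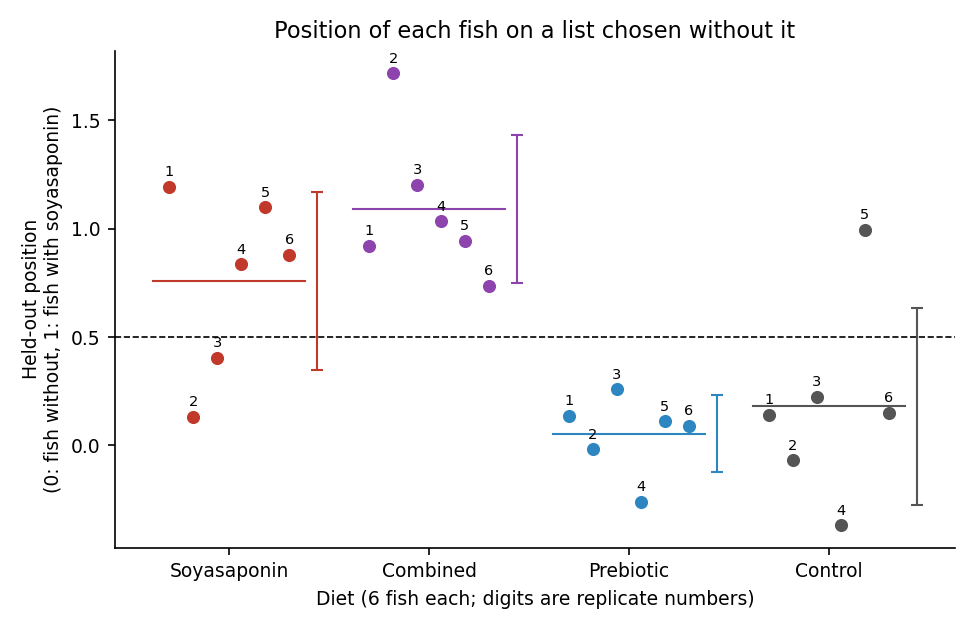
Each point is a fish, by diet (x axis), and shows its median place on a list of 150 transcripts chosen from the other 23 fish (y axis), with 0 at the mean of the fish without and 1 at the mean of the fish with soyasaponin; lines are diet means, bars are SD (n = 6 each) and the dashed line marks 0.5. Of the 24 fish, 21 lie on their own side, the others being soyasaponin replicates 2 and 3 and control replicate 5.

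For means, the pairs of diets also allowed a reading in fish that took no part in the choice. The 150 transcripts with the largest median gap per SD of combined over prebiotic were read in soyasaponin and control fish. There 142 of 150 (94.7%) had the higher mean with soyasaponin, against 56.4% of all 12463. Leaving out each of these 12 fish gave 134 to 145. All 150 transcripts were read in the same 12 fish, so they are not separate observations of the diet. The median log2 difference was 0.28, against 0.72 between the diets that chose the list. Of the list limma called 2 (1.33%) higher in soyasaponin than in control fish, against 0.361% of all 12463. These calls came from the fit over all diets, so their spread includes the fish that chose the list. The choice favoured a low SD in those fish, so the calls are not independent of it. The level of this list was 0.0683 to 0.537 in soyasaponin fish, with a median of 0.237, and -0.244 to 0.548 in control fish, with a median of -0.0538. Control replicate 5 lay above all 6 soyasaponin fish and the groups overlapped.

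The reverse reading gave fewer transcripts with the higher mean. It gave more calls, but combined against prebiotic also called a larger share of all transcripts. Of the 150 transcripts with the largest gap per SD of soyasaponin over control, 104 (69.3%) had the higher mean in combined than in prebiotic fish, against 43.95% of all 12463. Leaving out each of these 12 fish gave 96 to 113. Here too the 150 transcripts were read in the same 12 fish and are not separate observations. The median log2 difference was 0.14, against 0.44 between the diets that chose the list. Of the list limma called 16 (10.7%) higher in combined than in prebiotic fish, against 3.49% of all 12463. These calls also came from the fit over all diets, and a low SD in soyasaponin and control fish favoured the choice. The excess over 3.49% is therefore not independent of the choice, and nothing is concluded from it. The level of the list was 0.0127 to 0.225 in combined fish and -0.0513 to 0.0889 in prebiotic fish, so these groups overlapped too. Of the combined over prebiotic list 43 were members of the set, and of the soyasaponin over control list 30.

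Within diets most pairs of members were positively correlated. After subtracting diet means, the correlation between a pair of members over the 24 fish had a median of 0.271 over 11175 pairs, against -0.00645 over all pairs of the 12463 transcripts. It was above 0.7 in 6.86% of member pairs and in 1.44% of all pairs, and below 0 in 20.8% and 50.8%. The first component of these deviations held 34.2% of the variance of the members and the second 17.2%. Over all 12463 transcripts the first component held 23.3%. The deviation of a member correlated with the median of the others above 0.5 for 88 members, between 0 and 0.5 for 56 and below 0 for 6. All these values rest on the same 24 libraries that chose the members, so the comparison with all pairs is a description.

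The members most like LABE_00036797-RA in these deviations were LABE_00018289-RA, with a correlation of 0.690 over 24 fish, and LABE_00024571-RA, with 0.619. LABE_00018289-RA had medians of 741 and 736 in soyasaponin and combined fish and 475 and 568 in prebiotic and control fish. LABE_00024571-RA had medians of 2144 and 2286 in soyasaponin and combined fish and 1386 and 1608 in prebiotic and control fish. In all 3 the highest fish without soyasaponin was control replicate 5.

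Library measures were set beside this shared variation. For this the level of a fish was the median over the 150 transcripts of their deviations from diet means. Diet means were subtracted from both measures and values were permuted within diets. The choice used the spread of these deviations, so the r, rho and p values of the 3 measures only describe the set. Over the 24 fish this median deviation had a Pearson r of -0.51 with the share of counts held by the most abundant transcript of the table (permutation p = 0.0221, adjusted p = 0.0662 over 3 measures). Spearman's rho was -0.39 (permutation p = 0.0911, adjusted p = 0.273). With diet means subtracted, control replicates 4 and 5 were the 2 fish farthest from the median share. Without them r was -0.26, so the relation was weaker without those fish. That share was 1.35% in control replicate 5 and 5.94% in control replicate 4, and 2.83% to 3.56% in the other 4 control fish. By diet it ran from 2.16% to 3.89% in soyasaponin fish, with a median of 3.08%, from 2.41% to 3.84% in combined fish, with a median of 3.28%, and from 3.72% to 6.30% in prebiotic fish, with a median of 5.92%, against a median of 3.22% in control fish. The median share was highest in prebiotic fish, and the log2 mean was lowest in prebiotic fish for 96 of the 150 members. The r above was taken with diet means subtracted and so describes no difference between diets. The part of this share in the larger combined minus prebiotic differences was not tested.

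The same median deviation had an r of 0.27 with the log2 size factor (permutation p = 0.241, adjusted p = 0.361, rho 0.22 with permutation p = 0.326 and adjusted p = 0.490, r = 0.36 without control replicate 1 and prebiotic replicate 2). With the first component of all 12463 transcripts r was 0.03 (permutation p = 0.893, adjusted p = 0.893, rho 0.11 with permutation p = 0.628 and adjusted p = 0.628, r = -0.11 without prebiotic replicates 4 and 6). The part of library composition in the set was not tested beyond these values.

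The within-diet SD on the log2 scale was larger with soyasaponin than without in 77 of 150 members and smaller in 73, while it was larger in 33.4% of the 12463 transcripts. The choice used the SD pooled over diets, so nothing is read from this contrast. The values with soyasaponin include replicates 2 and 3 of that diet, and those without include control replicate 5.

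Some members had neighbouring identifiers. With the number in the identifier as the only guide, 27 of the 150 (18%) were in 14 pairs no more than 10 numbers apart. How many such pairs another 150 of the 12463 transcripts would hold was not counted, so the 18% only describes the set. No source used here says what the numbers stand for. The deviations of these pairs correlated with a median of 0.487 over 24 fish, from -0.108 to 0.866, against 0.0429 over the 10186 such neighbouring pairs among all 12463 transcripts. Members correlate with each other in any case, with the median of 0.271 given above.

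The transcripts named in what follows were chosen after their values were seen. The closest of these pairs was LABE_00002738-RA and LABE_00002740-RA, at 0.866. LABE_00002738-RA averaged 979 ± 365 normalized counts in soyasaponin and 1231 ± 393 in combined fish, against 578 ± 124 in prebiotic and 491 ± 126 in control fish (SD, n = 6 each). LABE_00002740-RA averaged 263 ± 86.0 and 334 ± 106 in soyasaponin and combined fish, against 146 ± 33.9 and 162 ± 43.997 in prebiotic and control fish (SD, n = 6 each). Both were highest in combined fish. Whether reads of near-identical copies were shared between such transcripts was not examined. The members LABE_00052497-RA, LABE_00052502-RA and LABE_00052508-RA also followed each other, with log2 differences of 1.09, 0.52 and 0.63, but the first and second of them correlated at only 0.0784.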

How the data were processed

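RNA sequencing of the hindgut of 24 ballan wrasse was used, 6 fish on each of 4 diets. The authors deposited a signal: counts per transcript, scaled by the size factor of each library. The submitters' processing notes name cutadapt, TopHat2, featureCounts, Subread and DESeq2 without role or version, and no source used here gives the genome build or annotation. With the least non-zero value of a library taken as 1 read, 100% of the 498024 values were whole to within 1e-06, and these reads were used (8424447 to 12507141 per library). A value of 0 allows up to 3 reads and covers counting error only. Chi-square per degree of freedom was 18.1 to 86.4 over 60 pairs of fish of a diet, so every library counted as a separate fish; p-values measure the spread between fish that shared 2 tanks a diet.

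limma 3.58.1 (R 4.3.3) with an intensity trend was fitted to log2(count + 1) of the 17056 transcripts with a mean of at least 10, all 4 diets at once, with 6 contrasts. Tests were two-sided and adjusted p is Benjamini-Hochberg over all 17056. edgeR 4.0.16 and DESeq2 1.42.0 on recovered reads, pseudocounts of 0.5 and 5, other filters, quantile and TMM scaling, diet means, leaving out fish and a block of title numbers were alternatives. The reading of a pair of diets in the other pair was added after seeing the data. The members and lists were chosen with earlier results of these data known. Named transcripts were the 2 highest scores, the 2 at each end of difference, the 2 most abundant and the 2 largest prebiotic and interaction estimates. The 2 nearest the limit on each side and the 2 most like the leading member were named too. Others are said to be chosen after their values were seen. Steps were tested on simulated data. Figures were drawn with matplotlib 3.10.9.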

Additional observations from a re-analysis of the deposited data

Results flagged for a closer look

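In 4 of 84 groups of 6 fish a value stood apart from its nearest neighbour by more of the group's range than Dixon's limit allows, and chance gives about 1 in 20. Soyasaponin replicate 4 was lowest of its diet for LABE_00036797-RA (0.695 of the range) and for LABE_00005636-RA (0.632). Combined replicate 6 was lowest for LABE_00033764-RA (0.681). Control replicate 5 was highest for LABE_00062098-RA (0.796), as it was for 71 of the 150 members among the fish without soyasaponin.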

How the results depend on the processing

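Of the 150 transcripts, the rule kept 106 to 150 under other pseudocounts, filters, quantile normalization and TMM scaling, 98 with diet means in place of medians, and 68 to 135 with a fish or a run of 3 title numbers left out, the lowest without the higher 3 numbers of the soyasaponin diet. The count of 21 of 24 left-out fish on their own side was 21 under all 8 alternatives run. Members called in soyasaponin against control, 14 with all fish (0.276% of all transcripts called higher), were 5 under quantile normalization (0.123% of all) and 51 in DESeq2 (1.24%). They were 33 with title-number runs as a random block (0.739%, within-run correlation -0.0405) and 1 when only these diets were fitted (0.0293%). With a fish left out they were 0 to 60 (0% to 1.16%). Members called over both prebiotic levels were 132 to 147 with a fish left out, beside 2.78% to 5.41% of all transcripts called higher. Those in combined against prebiotic were 54 to 108, beside 1.25% to 3.24%. The cause was not tested. Single transcripts were followed only for the difference over both prebiotic levels of the 18 chosen by the naming rule, and its sign turned in 0 of them; other named transcripts and the prebiotic and interaction estimates were not followed. Of members not called with all fish, LABE_00049735-RA was called under 8 alternatives, LABE_00035696-RA under 5 and LABE_00013416-RA under 2. LABE_00041436-RA lost its call over both prebiotic levels without control replicate 4, combined replicate 2 or any of soyasaponin replicates 1, 4, 5 and 6. No paired analysis was possible because replicate numbers follow record order and pair no fish. Depth limits the scarce members most; 8 of the 150 had a mean under 100 normalized counts.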
